A study of Mus musculus with 6 samples.

Results

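The FoxO factors Foxo1, Foxo3 and Foxo4 and 5 genes known as their targets, Sesn1, Sesn3, Ccng2, Txnip and Bcl6, were followed in mouse haematopoietic stem cells (HSCs). These 8 genes were chosen by symbol from the 23955 symbols of the deposited table, and all 8 averaged 1 TPM or more over the libraries, the bound that 11931 genes met to enter the test. TPM (transcripts per 1000000) is a transcript abundance corrected for length. The HSCs were sorted from bone marrow as c-Kit+ Sca-1+ cells without lineage markers that were CD150+ and CD48-, 20000 per library, from C57BL/6 mice at 4 months of age. Obese db/db mice, which carry a germline mutation of the leptin receptor gene in the HSCs as in every other cell, gave 3 libraries, and WT littermates gave 3. Each of 3 experiments, numbered 18, 22 and 25 in the titles and called experiments 1, 2 and 3 here, gave 1 library per genotype. Whether the cells of a library were pooled over mice is not stated in the labels.

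FoxO proteins are forkhead transcription factors that bind DNA in the nucleus when insulin and growth factor signalling is low. When PI3K and AKT are active, AKT phosphorylates them and 14-3-3 proteins hold them in the cytoplasm, so their activity is set largely by location and not by transcript level. In HSCs they are known for keeping cells quiescent and for limiting reactive oxygen species, and mice that lack them lose HSCs with time. RNA levels do not report that phosphorylation.

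Lepr, the mutated gene, was listed at 1.51, 2.44 and 2.04 TPM in db/db replicates 1, 2 and 3, against 2.34, 2.93 and 2.79 TPM in the WT libraries of the same experiments. The db mutation acts on splicing of the long isoform, so this total does not check the genotype. Depth is unknown, since TPM keeps none. Size factors from medians of ratios ran from 0.915 to 1.23 in db/db and from 0.815 in WT replicate 2 to 1.14 in WT replicate 3. The median log2 fold change of all tested genes was 0.18 in TPM and 0.00 once the libraries were scaled by these factors. Within experiments 1, 2 and 3 that median was 0.00, 0.45 and 0.09 on the TPM scale. The 11 genes fixed as markers of the gate were all detected, and their summed level was 1916 to 2190 TPM in db/db and 1319 to 2264 TPM in WT. Of markers of other cells, the T cell genes Cd3e and Cd3g and the B cell genes Pax5, Ebf1, Ms4a1 and Igll1 were listed at 0 in all 6 libraries. The 9 granulocyte markers summed to 3589, 1507 and 1345 TPM in db/db and to 4328, 181 and 256 TPM in WT replicates 1, 2 and 3, so WT replicate 1 stood apart from the other WT libraries. Erythroid markers summed to 316 to 1422 TPM in db/db and 85.8 to 199 TPM in WT, without overlap. Most of the db/db sums was Hbb-b2, at 1348, 513 and 256 TPM in db/db and 89.3, 79 and 55.1 TPM in WT. Markers of multipotent and restricted progenitors summed to 834 to 1224 TPM in db/db and 634 to 818 TPM in WT, also without overlap. Markers of monocytes summed to 69.4 to 135 TPM in db/db and 30.5 to 78.7 TPM in WT, and those of stroma and endothelium to 28.7 to 41.3 TPM in db/db and 25.1 to 46.3 TPM in WT. Plasma cell markers summed to 110 to 135 TPM in db/db and 55.2 to 101 TPM in WT, also without overlap. Nearly all of that was Xbp1, at 108, 102 and 127 TPM in db/db and 91.8, 52.5 and 96.4 TPM in WT. The groups overlapped for Sdc1, Igj and Prdm1, so the sum is close to that of a single gene. Megakaryocyte markers summed to 563 to 840 TPM in db/db and 442 to 687 TPM in WT. The ribosomal RNA symbol Rn45s held 8.51%, 8.04% and 6.34% of all TPM in db/db and 10.4%, 10.4% and 6.46% in WT, lower in db/db in each experiment. The part of these cells and of Rn45s in the results below was not tested. In bulk samples, fewer cells of a type and less RNA per cell cannot be told apart.

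None of the 8 genes passed in the comparison of db/db with WT, which was made with limma over all 11931 genes and called at a Benjamini-Hochberg adjusted p under 0.05. Over all genes, 0.0335% passed, which is 4 symbols, all higher in db/db. Hbb-b2 and Hbb-bt are among the 4 and hold the same value in every library, so the 4 symbols are not separate signals. Before adjustment, with p under 0.05, 1 of the 8 was higher and 0 were lower, where 4.1% and 1.25% of all tested genes were. With scaled TPM the split over all genes was 2.49% higher and 2.98% lower. Sesn3 was the 1 gene of the 8. With the experiment as a block, Txnip joined it, so that 2 of the 8 were higher, where 5.41% of all tested genes were higher and 1.62% lower. The groups did not overlap for 1 of the 8, again Sesn3, where 7.85% of all tested genes lay higher without overlap and 2.32% lower. The log2 fold changes of the 8 genes were above 0 in 4 and below 0 in 4, with a median of 0.16, where 68.1% of all tested genes were above 0 and the median was 0.18. With scaled TPM the same 4 were above 0. Without WT replicate 1, the library with the highest granulocyte markers, the log2 fold changes were 0.96 for Sesn3, 0.57 for Txnip, 0.32 for Foxo3, 0.31 for Sesn1, 0.12 for Foxo1, -0.01 for Foxo4, -0.13 for Bcl6 and -0.37 for Ccng2, and none of the 8 passed.

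**Figure D1:**
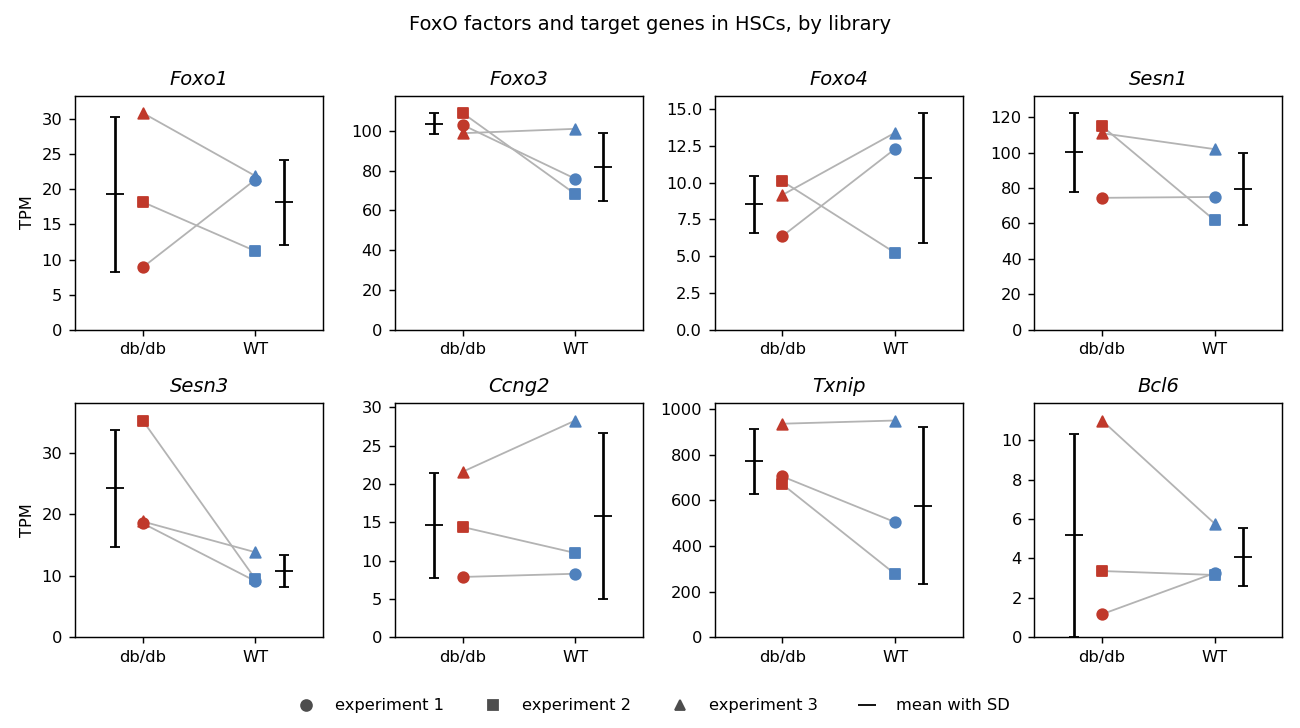
Level of each of the 8 genes in TPM (vertical axes, each from 0) in db/db libraries (red, left) and WT libraries (blue, right). Lines join the 2 libraries of an experiment, and black bars are the mean with the SD of 3 libraries. Sesn3 alone has all 3 db/db libraries, at 18.5 to 35.2 TPM, above all 3 WT libraries, at 9.1 to 13.8 TPM.

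Foxo3, the factor whose loss alone is known to reduce HSC function in mice, was the most abundant of the 3. It was at 103, 109 and 98.8 TPM in db/db replicates 1, 2 and 3, against 75.9, 68.2 and 101 TPM in the WT libraries of the same experiments. The db/db libraries lay close together, and WT replicate 3 lay among them while WT replicates 1 and 2 lay below. The means were 104 ± 5.23 TPM in db/db and 81.6 ± 17 TPM in WT (SD, n = 3 each). The log2 fold change was 0.36 (SE 0.27, 95% interval -0.20 to 0.92), and it did not pass in limma (adjusted p = 0.92). It was 0.17 after median-of-ratios scaling. The exact two-sided permutation test over the libraries gave p = 0.2 for Foxo3, where the smallest value that 3 against 3 libraries allow is 0.1. Foxo3 was the most abundant in both genotypes of the 14 forkhead genes that entered the test. The next was Foxn3, a forkhead repressor, at 52.9 ± 14.7 TPM in db/db and 42.9 ± 4.86 TPM in WT (SD, n = 3 each).

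Foxo1, the factor best known from insulin responses in liver and from lymphocyte development, was at 8.89, 18.2 and 30.9 TPM in db/db and at 21.4, 11.2 and 21.9 TPM in WT replicates 1, 2 and 3. The lowest and the highest of the 6 values were both db/db libraries. The within-experiment log2 differences were -1.18, 0.65 and 0.48, so experiment 1 went the other way from experiments 2 and 3. The means of 19.4 ± 11.1 TPM in db/db and 18.2 ± 6.02 TPM in WT (SD, n = 3 each) differed by -0.02 on the log2 scale (SE 0.43, limma adjusted p = 0.997). Its 95% interval of -0.91 to 0.88 includes changes of nearly 1 in either direction.

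Foxo4, the X-linked member of the family, was at 6.36, 10.1 and 9.16 TPM in db/db and at 12.3, 5.23 and 13.4 TPM in WT. In experiments 1 and 3 the db/db library was the lower, and in experiment 2 the WT library was. The means were 8.53 ± 1.93 TPM in db/db and 10.3 ± 4.42 TPM in WT (SD, n = 3 each). The log2 fold change of -0.17 had an SE of 0.45 (limma adjusted p = 0.962), and after median-of-ratios scaling it was -0.35. The fourth mouse family member, Foxo6, was at or below 0.09 TPM in every library and was not tested.

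The 3 factors summed to 118, 137 and 139 TPM in db/db and to 110, 84.7 and 136 TPM in WT replicates 1, 2 and 3. The db/db library was the higher in each experiment, by 0.11, 0.70 and 0.03 on the log2 scale, but WT replicate 3 lay above db/db replicate 1. The mean log2 difference was 0.28 (exact permutation p = 0.2), and after median-of-ratios scaling it was 0.08 (exact permutation p = 0.4), with experiment 3 then at -0.08. These tests take the libraries as unpaired. Flipping the signs of the differences within experiments, which keeps the pairing, gave an exact p of 0.25 before scaling, the smallest that 3 pairs allow. After scaling the sign-flip p was 0.5. Foxo3 made up 87.1%, 79.4% and 71.1% of the sum in db/db and 69.2%, 80.5% and 74% in WT. Foxo1 made up 7.52%, 13.3% and 22.3% in db/db and 19.5%, 13.3% and 16.1% in WT. A share does not move with the scaling of a library, and within db/db the share of Foxo1 still spanned the whole range of the 6 libraries. The exact two-sided permutation tests of the 3 shares gave p = 0.5 for Foxo3, 0.7 for Foxo1 and 0.3 for Foxo4. Foxo4 held 6.43% ± 0.982 of the sum in db/db and 9.08% ± 2.6 in WT (SD, n = 3 each).

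**Figure D2:**
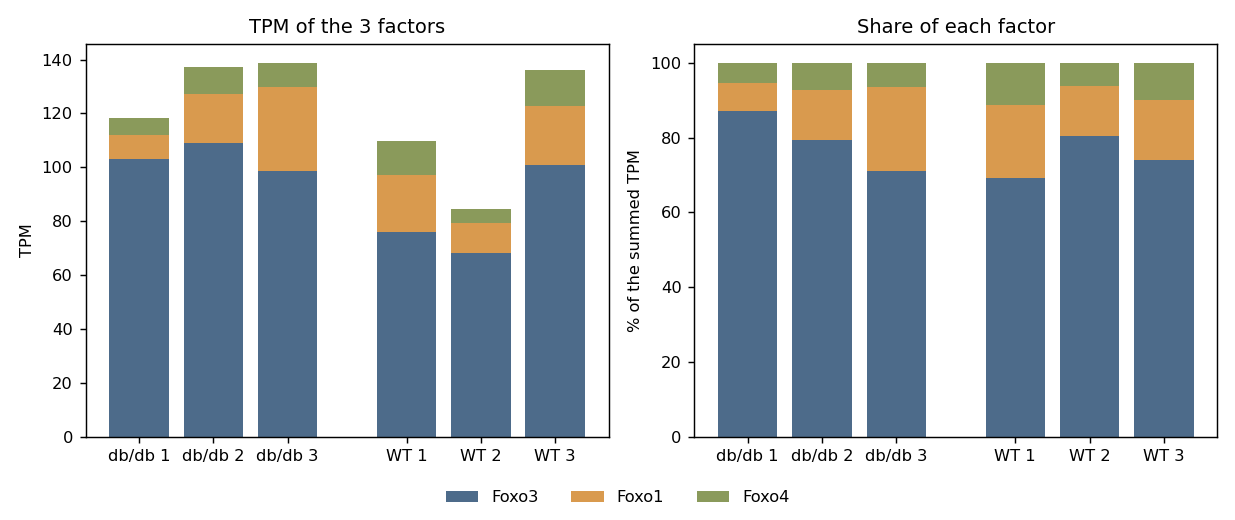
Stacked bars of Foxo3, Foxo1 and Foxo4 in each library, db/db on the left of each panel and WT on the right, as TPM (left panel) and as percent of the summed TPM (right panel). The sum runs from 84.7 TPM in WT replicate 2 to 139 TPM in db/db replicate 3, and Foxo3 holds 69.2% to 87.1% of it in every library.

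Of the 5 targets, the sestrins come first. Sestrins are stress-induced proteins that restrain the mTORC1 growth pathway, and Sesn3 is a known direct FoxO target while Sesn1 is also a known p53 target. Sesn3 was at 18.5, 35.2 and 18.8 TPM in db/db replicates 1, 2 and 3 and at 9.1, 9.42 and 13.8 TPM in WT. All 3 db/db libraries lay above all 3 WT libraries, and the groups still did not overlap after median-of-ratios scaling. The means were 24.2 ± 9.57 TPM in db/db and 10.8 ± 2.6 TPM in WT (SD, n = 3 each), a ratio of 2.25. The log2 fold change was 1.06 (SE 0.39, 95% interval 0.25 to 1.87) with within-experiment differences of 0.95, 1.80 and 0.43. Over all genes it did not pass in limma (unadjusted p = 0.0131, adjusted p = 0.795), and the exact two-sided permutation p was 0.1, the smallest it can be. After scaling, the log2 fold change was 0.87 (SE 0.32, limma adjusted p = 0.839). Without each library in turn it ran from 0.76 to 1.23.

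Sesn1 was at 74.5, 115 and 111 TPM in db/db and at 75, 61.7 and 102 TPM in WT, so the groups overlapped. In experiment 1 the libraries of both genotypes were within 0.01 of each other on the log2 scale, and in experiment 2 they differed by 0.88. The log2 fold change was 0.33 (SE 0.29, limma adjusted p = 0.92), and 0.14 after median-of-ratios scaling. Sesn1 lay at nearly the level of Foxo3. In 1 of 3 db/db libraries and in 2 of 3 WT libraries Foxo3 was the higher, and their ranges overlapped in both genotypes.

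Ccng2, which encodes cyclin G2, an atypical cyclin linked to cell cycle exit, was at 7.87, 14.4 and 21.6 TPM in db/db and at 8.29, 11 and 28.3 TPM in WT. The values ran with the experiment in both genotypes, lowest in experiment 1 and highest in experiment 3. The within-experiment differences were -0.07, 0.36 and -0.38, and the log2 fold change was -0.03 (SE 0.46, limma adjusted p = 0.996).

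Bcl6, a zinc-finger repressor best known from germinal centre B cells, was the least abundant, at 1.17, 3.36 and 11 TPM in db/db and 3.26, 3.16 and 5.76 TPM in WT. Its highest value was 9.39 times its lowest, the widest span of the 8 genes, and both ends were db/db libraries. The log2 fold change was -0.03 (SE 0.58, limma adjusted p = 0.997), with within-experiment differences of -0.97, 0.07 and 0.83. At this level the added 1 TPM of the log scale shrinks differences.

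Txnip encodes thioredoxin-interacting protein, an alpha-arrestin that binds thioredoxin and limits glucose uptake. It is known to be induced both by FoxO factors and, when glucose is high, by the MondoA and ChREBP factors at carbohydrate response elements. Txnip was by far the most abundant of the 8 genes, between the 97.1st and 98.9th percentile of tested genes in every library. It was at 704, 670 and 935 TPM in db/db replicates 1, 2 and 3 and at 504, 277 and 949 TPM in WT. The libraries of experiment 3 were the highest of each genotype and differed by 0.02 on the log2 scale with WT above, while db/db was the higher by 0.48 in experiment 1 and by 1.27 in experiment 2. The coefficient of variation was 18.7% in db/db and 59.3% in WT. The means of 770 ± 144 TPM in db/db and 577 ± 342 TPM in WT (SD, n = 3 each) gave a log2 fold change of 0.58 (SE 0.31, 95% interval -0.07 to 1.22), which did not pass in limma (adjusted p = 0.919). With the experiment as a block, the unadjusted p moved to 0.0246 from 0.0758 without it and the adjusted p was 0.646. WT replicate 2 held the lowest value and had a size factor of 0.815. Median-of-ratios scaling brought Txnip there to 340 TPM, still the lowest of the 6 libraries, and the log2 fold change to 0.38. Without WT replicate 2 the fold change was 0.14.

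The sequence before the transcription start of Txnip is shown because it holds a site of each kind. The RefSeq window of 300 bases, 250 before to 50 after the start, was searched on both strands for the core of the FoxO site, GTAAACA. It was also searched for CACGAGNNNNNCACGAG, a spaced pair of the half-sites of the carbohydrate response element known from the human gene. The 250 bases before the start lie at chr3:96557707-96557956 on the plus strand of GRCm38.p6, and capitals mark the FoxO core and the half-sites.
Txnip: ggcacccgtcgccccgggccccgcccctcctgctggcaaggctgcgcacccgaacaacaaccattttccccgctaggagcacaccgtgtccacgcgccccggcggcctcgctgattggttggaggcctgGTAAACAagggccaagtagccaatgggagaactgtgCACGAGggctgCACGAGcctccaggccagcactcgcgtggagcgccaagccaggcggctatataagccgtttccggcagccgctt
The FoxO core lies 121 to 115 bases before the start and the pair 85 to 69 bases before it, without overlap between them. The spacing and letters of the pair were set with this window in view, so that its presence in 1 of 32851 windows says nothing beyond the spelling.

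The FoxO core was present in 3.65% of the 32851 windows and in 4.05% of the 27025 genes that have a window. Of the 8 genes, 7 had an entry, and the core was found in 2 of these, Txnip and Sesn1. Foxo4 had none in the table. In Sesn1 the match is on the minus strand, 23 to 29 bases past the start of 1 of its 2 windows, and it is shown for comparison at chr10:41810585-41810612 on the plus strand of GRCm38.p6, with the match in capitals.
Sesn1: gaaccttctacTGTTTACcagccttttg
Sesn3, the gene with the largest difference between the genotypes of the 8, had no match in its window. A match describes letters and not binding, and known FoxO sites often lie outside such windows. Among 83 further targets from 6 lists, 61 had an entry and 9.84% of these held the core. They were Bbc3, Bcl2l11, Btg1, Hbp1, Mxi1 and Trim63.

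Ordered by mean TPM in db/db HSCs, the 8 genes ran Txnip, Foxo3, Sesn1, Sesn3, Foxo1, Ccng2, Foxo4 and Bcl6. In WT HSCs the order was Txnip, Foxo3, Sesn1, Foxo1, Ccng2, Sesn3, Foxo4 and Bcl6, so Sesn3 was 4th in db/db and 6th in WT. The steps below Txnip and below Sesn1 were the ones at which the ranges of neighbours did not overlap in either genotype. The other 5 steps had overlapping ranges in both genotypes.

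**Figure D3:**
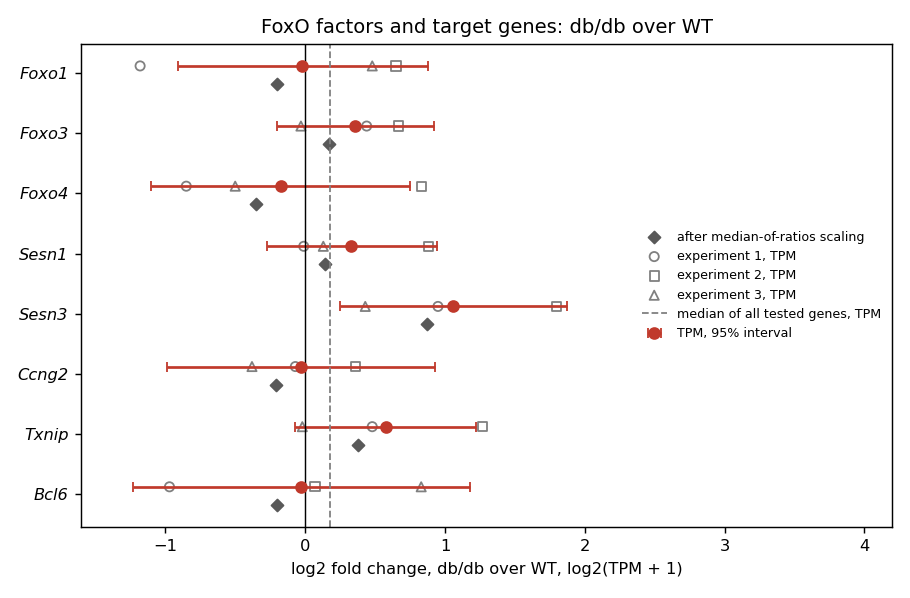
Log2 fold change of db/db over WT for each gene (horizontal axis, log2(TPM + 1) scale). Red points with bars are the limma estimates with their 95% interval, open symbols are the 3 experiments, grey diamonds the estimates after median-of-ratios scaling, and the dashed line is the median of all tested genes at 0.18. The interval of Sesn3, 0.25 to 1.87, is the 1 that does not include 0.

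Close relatives of the 5 targets were compared next, namely the alpha-arrestins Arrdc1 to Arrdc4, the third sestrin Sesn2, the cyclins Ccng1 and Ccni, and Bcl6b. All 8 had a log2 fold change above 0, 7 of them with scaled TPM too, and the median was 0.45 where that of all tested genes was 0.18. In limma 0 of the 8 passed. Before adjustment 1, or 12.5%, was higher with p under 0.05 and 0 lower, where 4.1% and 1.25% of all tested genes were. That gene was Arrdc4, which is known, like Txnip, as a target of MondoA. Arrdc4 was at 52.6, 46.1 and 60 TPM in db/db replicates 1, 2 and 3 and at 23.9, 12.6 and 40.6 TPM in WT. All db/db libraries lay above all WT libraries, with TPM as deposited and with scaled TPM. The means were 52.9 ± 6.96 TPM in db/db and 25.7 ± 14.1 TPM in WT (SD, n = 3 each). Its log2 fold change was 1.15 (SE 0.37, limma unadjusted p = 0.00514, adjusted p = 0.607). The order of the libraries within WT was the same for Arrdc4 and Txnip, lowest in replicate 2 and highest in replicate 3. Unlike Txnip, Arrdc4 was higher in db/db in experiment 3 too, by 0.55 on the log2 scale. Arrdc2 was lower in level, at 5.88 ± 2.72 TPM in db/db and 2.46 ± 1.86 TPM in WT (SD, n = 3 each), 1.05 higher in db/db on the log2 scale (SE 0.54, limma adjusted p = 0.919). Ccni, the most abundant of these relatives, was at 140 ± 25.8 TPM in db/db and 113 ± 31.9 TPM in WT (SD, n = 3 each). Sesn2, which is induced by amino acid stress, was at 7.74, 15.7 and 7.61 TPM in db/db and 4.43, 10.3 and 7.37 TPM in WT. Its groups overlapped.

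**Figure D4:**
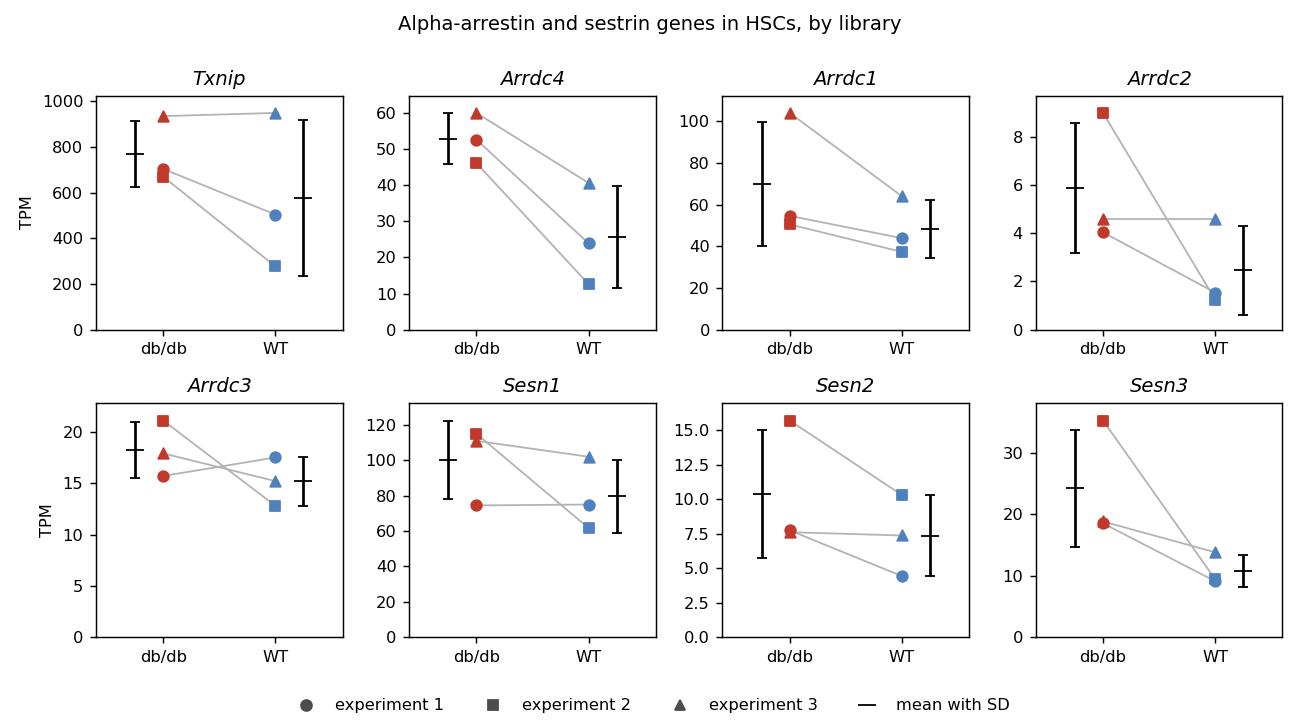
Levels in TPM (vertical axes from 0) of Txnip with 4 related alpha-arrestin genes and of the 3 sestrin genes, drawn as in the plot of the 8 genes, with db/db left of WT. Arrdc4 and Sesn3 are the panels in which all db/db libraries, at 46.1 to 60 and 18.5 to 35.2 TPM, lie above all WT libraries, at 12.6 to 40.6 and 9.1 to 13.8 TPM.

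Among the 38 other forkhead genes, 18 were listed at 0 in every library and 11 entered the test. All 11 had a log2 fold change above 0, or 7 with scaled TPM, and the median was 0.26, or 0.07 with scaled TPM. In limma 0 of the 11 passed, and at an unadjusted p under 0.05 1 was higher and 0 were lower, where 4.1% and 1.25% of all tested genes were. With the experiment as a block 2 were higher, where 5.41% of all tested genes were. Foxk1, a repressor of autophagy and atrophy genes in muscle, was at 35, 42.7 and 49.7 TPM in db/db and 24.4, 16.4 and 37.4 TPM in WT (log2 fold change 0.74, SE 0.35, limma adjusted p = 0.919). Foxj3 was at 17.7, 38.7 and 19.9 TPM in db/db and 12.8, 15.3 and 12.4 TPM in WT, without overlap on the TPM scale and with overlap after median-of-ratios scaling. On the TPM scale 2 of the 11 lay higher without overlap, Foxj3 and Foxd2, or 18.2% where 7.85% of all tested genes did. Foxd2 was named after its values were seen. With scaled TPM it was 1, Foxk1, or 9.09%, where 5.67% of all tested genes did.

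Genes that act on FoxO proteins gave 37 tested members, from the AKT and SGK kinases to 14-3-3 proteins, deacetylases, acetyltransferases and ubiquitin ligases. Of these, 30 were above 0 and 7 below, or 20 above 0 with scaled TPM, and the median log2 fold change was 0.21. In limma 0 of the 37 passed, and 0 had an unadjusted p under 0.05, where 4.1% of all tested genes were higher and 1.25% lower. With the experiment as a block it was 1, Ywhaz, where 5.41% were higher. Ywhaz, which encodes the 14-3-3 protein zeta, was the most abundant, at 752, 1024 and 993 TPM in db/db and 677, 502 and 847 TPM in WT. Its groups overlapped on the TPM scale and did not after median-of-ratios scaling (log2 fold change 0.47, and 0.27 scaled, limma adjusted p = 0.919 on the TPM scale). Mapk8, the kinase JNK1 that is known to favour nuclear FoxO under stress, was at 7.02, 8.58 and 9.08 TPM in db/db and 5.13, 4.98 and 3.55 TPM in WT. It was the 1 gene of the list without overlap between the groups on the TPM scale (log2 fold change 0.74, SE 0.45, limma adjusted p = 0.919). That is 2.7% of the list, where 7.85% of all tested genes lay higher without overlap. With scaled TPM, 4 did, or 10.8%, where 5.67% of all tested genes did.

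Further known FoxO targets were taken from 6 lists by role, 83 genes in all, of which 10 were listed at 0 in every library and 69 entered the test. Of the 69, 48 were above 0, which is 69.6% where all tested genes gave 68.1%, and with scaled TPM 40 were. The median log2 fold change was 0.25, and by experiment 0.03, 0.67 and 0.01. In limma 0 passed in either direction. With p under 0.05 before adjustment, 6 were higher, or 8.7% where all tested genes gave 4.1%, and 0 were lower, where all gave 1.25%. Among the 6, Ctla4 met the bound of 1 TPM only through its db/db libraries, so its direction followed from the filter. Under the block 8 were higher, where all gave 5.41%. The groups did not overlap for 9 that were higher, or 13% where all tested genes gave 7.85%, and 3 that were lower, or 4.35% where all gave 2.32%. After median-of-ratios scaling these were 6, or 8.7%, and 4, or 5.8%, where 5.67% and 4.75% of all tested genes lay higher and lower without overlap.

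The targets of insulin signalling and metabolism had a median of 0.37, with 12 of 15 tested genes above 0. With p under 0.05 before adjustment, 3 were higher, or 20% where all tested genes gave 4.1%, and 0 were lower. The groups did not overlap for 4 that were higher, or 26.7% where all gave 7.85%, and for 1 that was lower, or 6.67% where all gave 2.32%. With scaled TPM these were 3 and 1, or 20% and 6.67%, where all tested genes gave 5.67% and 4.75%. Tsc22d3, a glucocorticoid-induced leucine zipper gene that FoxO3 also induces, was at 147, 131 and 188 TPM in db/db and 82.4, 44.5 and 118 TPM in WT. Its log2 fold change was 1.01 (SE 0.31, limma unadjusted p = 0.00404, adjusted p = 0.588). Ddit4, an mTORC1 inhibitor known as REDD1, was at 50.4, 35.8 and 40.8 TPM in db/db and 22.1, 22 and 23.6 TPM in WT, with WT libraries closer together than for most genes here. Its log2 fold change was 0.87 (SE 0.32, limma adjusted p = 0.795). Pik3ip1, a transmembrane inhibitor of PI3K chosen for mention after its values were seen, was at 122, 145 and 132 TPM in db/db and 79.6, 61.4 and 105 TPM in WT (log2 fold change 0.72, SE 0.28, limma adjusted p = 0.808). All 3 genes were without overlap with TPM as deposited and with scaled TPM. The fourth on the TPM scale was Irs2, and the 1 lower was Pdk4, a mitochondrial kinase gene, at 1.18, 1.11 and 1.21 TPM in db/db and 2.61, 1.48 and 1.87 TPM in WT. Both were named after their values were seen. The liver FoxO targets Igfbp1, G6pc and Pck1 were listed at 0 in every library.

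Cell cycle and quiescence targets had a median of 0.29, with 12 of 16 tested genes above 0. With p under 0.05 before adjustment, 1 was higher, or 6.25% where all tested genes gave 4.1%, and 0 were lower. Under the block 2 were higher, Gadd45a and Cdkn1a, and 0 lower, where all tested genes gave 5.41% and 1.62%. Gadd45a, a DNA damage and growth arrest gene, was at 6.52, 7.65 and 11.2 TPM in db/db and 6.61, 1.16 and 2.63 TPM in WT (log2 fold change 1.25, SE 0.52, limma adjusted p = 0.899). In experiment 1 its libraries were alike. The cell cycle inhibitor Cdkn1a was at 69.7, 43.7 and 16.2 TPM in db/db and 38.1, 15 and 13.9 TPM in WT, highest in experiment 1 in both genotypes. The zinc-finger gene Klf6, the most abundant of the list, was at 150 ± 34 TPM in db/db and 130 ± 47.8 TPM in WT (SD, n = 3 each). Gadd45b, a paralogue of Gadd45a named after its values were seen, lay the other way without overlap, at 7.49, 4.99 and 12.3 TPM in db/db and 13.3, 13 and 15.8 TPM in WT (log2 fold change -0.77, SE 0.42, limma adjusted p = 0.919).

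Oxidative stress defence, the FoxO role best known in HSCs, had a median of 0.09, below that of all tested genes, with 6 of 11 above 0. In limma 0 passed and 0 had an unadjusted p under 0.05. With the experiment as a block 1 was higher, Prdx3, and 0 lower, where all tested genes gave 5.41% and 1.62%. The peroxiredoxin gene Prdx3 was at 98.9 ± 30 TPM in db/db and 65.7 ± 15.3 TPM in WT (SD, n = 3 each). The catalase gene Cat was at 101 ± 27.4 TPM in db/db and 70.7 ± 20 TPM in WT (SD, n = 3 each). Sod1, the cytosolic superoxide dismutase and the most abundant of the list, was at 5628 ± 635 TPM in db/db and 5120 ± 843 TPM in WT (SD, n = 3 each). Its log2 fold change was 0.14 in TPM and -0.05 in scaled TPM. The mitochondrial thioredoxin reductase gene Txnrd2, named after its values were seen, was the 1 gene of this list without overlap on the TPM scale, at 6.48, 3.89 and 7.88 TPM in db/db and 8.71, 8.83 and 8.11 TPM in WT. That is 9.09% of the list, where 2.32% of all tested genes lay lower without overlap. With scaled TPM, 1 lay higher, Sepp1, and 2 lower, Txnrd2 and Prdx5, where all tested genes gave 5.67% and 4.75%.

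Autophagy genes and ubiquitin ligases had a median of 0.18, the same as all tested genes, with 11 of 16 above 0, 0 passing and 0 at an unadjusted p under 0.05 in limma. Without overlap on the TPM scale were 4 of them, Map1lc3b, Pink1, Atg14 and Ulk1, all higher in db/db. That is 25%, where 7.85% of all tested genes were, and after median-of-ratios scaling it was 0 of 16, where 5.67% were. Map1lc3b, which encodes the autophagosome protein LC3B, was at 394, 394 and 430 TPM in db/db and 346, 343 and 359 TPM in WT. Pink1, a mitophagy kinase gene, was at 68.2, 81.2 and 75.2 TPM in db/db and 47, 62.5 and 59.6 TPM in WT. Atg14, part of the complex that starts autophagosomes, was at 16.4 ± 5.77 TPM in db/db and 9.61 ± 2.39 TPM in WT (SD, n = 3 each).

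Apoptosis targets had a median of -0.01, with 3 of 7 tested genes above 0, 0 passing and 0 at an unadjusted p under 0.05 in limma. The death ligand gene Tnfsf10 was at 27.7, 44.2 and 37.5 TPM in db/db and 27.1, 23.7 and 26.6 TPM in WT. The pseudokinase gene Trib1 was at 23.2 ± 3.74 TPM in db/db and 18.6 ± 4.19 TPM in WT (SD, n = 3 each).

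Lymphoid targets had 4 tested genes of 9, all above 0, with a median of 0.48. In limma 0 passed. Before adjustment 2 of the 4, Ctla4 and Ikzf1, were higher with p under 0.05 and 0 lower, where 4.1% and 1.25% of all tested genes were. The interleukin 7 receptor gene Il7r, an antibody target of the depletion, and Ccr7 and Rag1 were listed at 0 in every library. Ikzf1, the Ikaros factor gene, was at 112, 150 and 169 TPM in db/db and 86.5, 78.3 and 124 TPM in WT (log2 fold change 0.58, SE 0.28, limma adjusted p = 0.919). Ctla4, an inhibitory T cell receptor gene, was at 2.31 and 10.2 TPM in db/db replicates 1 and 2, against 0.38 TPM in WT replicate 2, and was listed at 0 in the other 3 libraries. It averaged 4.17 TPM in db/db and 0.127 TPM in WT, so it met the bound of 1 TPM only through db/db. Its direction followed from that filter, and it adds no support to the count or the median of this list. The summed T and NK cell markers were 141 to 213 TPM in db/db and 71.1 to 128 TPM in WT, most of it from Nkg7, and Cd3e, Cd3g and Ncr1 were at 0.

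**Figure D5:**
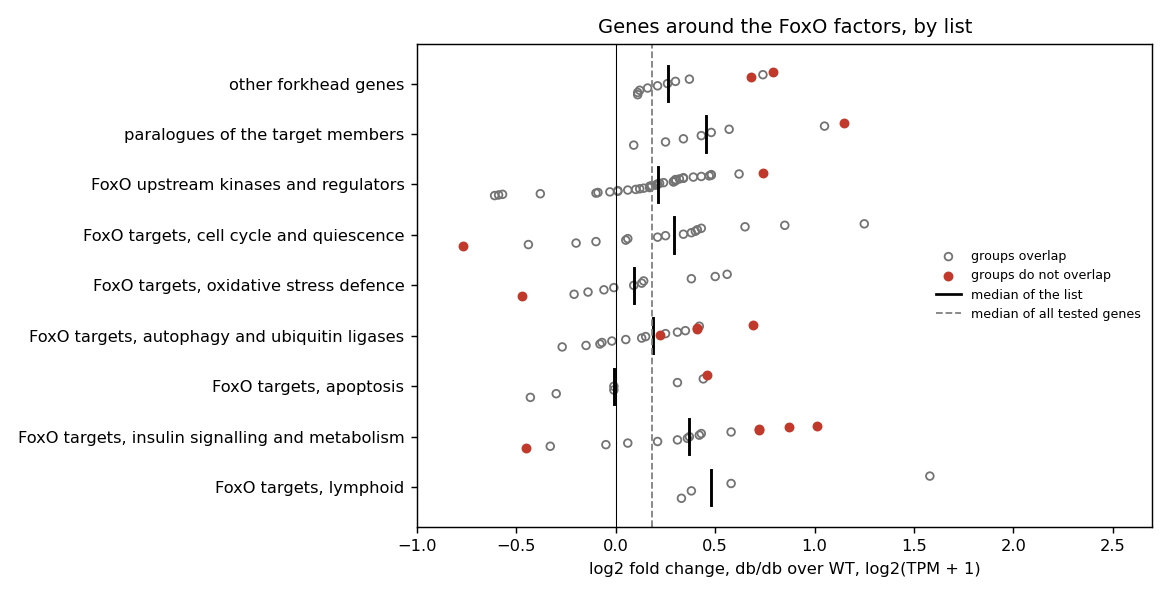
Log2 fold change of db/db over WT (horizontal axis, log2(TPM + 1) scale) for every tested gene of each list, 1 row per list. Red points are genes whose db/db and WT libraries do not overlap, black bars are list medians, and the dashed line is the median of all tested genes at 0.18. List medians run from -0.01 for apoptosis targets to 0.48 for lymphoid targets, and that of the insulin list is 0.37.

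The genes whose log2 values ran most like those of each factor over the 6 libraries, after median-of-ratios scaling and among 7593 genes that averaged 10 TPM or more, were picked by Pearson correlation. For Foxo3 they were Arhgef1 and Col4a2 (r = 0.981 and 0.973), for Foxo1 Tax1bp3 and Surf2 (0.985 and 0.977) and for Foxo4 Rab22a and Lap3 (0.98 and 0.972). With 6 libraries, 53, 60 and 34 genes exceeded 0.9 for Foxo3, Foxo1 and Foxo4, so these are descriptions of the same 6 libraries and not of shared regulation.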

How the data were processed

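RNA of 6 libraries was made into stranded poly(A) libraries and sequenced as paired reads of 75 nucleotides, per the labels' protocols. The authors deposited TPM values per gene symbol, and the submitters' processing notes name RSEM, Bowtie2 and the mm9 build. Their versions, settings and gene annotation are not given in the sources used here. Depth per library is unknown, so no counting error is attached. Replicates are separate experiments, and p-values measure the spread between these libraries.

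The 11931 genes that averaged 1 TPM or more were tested on log2(TPM + 1) with limma 3.58.1 (R 4.3.3), genotype as the only term, trended empirical Bayes moderation (17.7 prior and 4 residual degrees of freedom), two-sided, with Benjamini-Hochberg adjustment over all tested genes. Fold changes are on that scale, which understates changes of low genes. Exact permutation tests (scipy 1.17.1) compared single values, with the libraries taken as unpaired. On values simulated for this comparison over 11931 genes, in 5 runs with 200 genes changed, 8.8% of genes given a log2 change of 1 were recovered, and 80% of those given 2. The labels give each experiment 1 library per genotype, and this pairs the libraries. Libraries of 1 experiment deviated from their group means with correlations of 0.04, 0.01 and 0.16, and those of different experiments with -0.12 to 0.08. No library pair shared identical values at more than 0.654% of tested genes.

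The 8 genes, the gene lists and the tests were chosen with earlier results of these data known. Named from each list were the 2 genes of smallest unadjusted p and the most abundant gene, besides genes said to be chosen after their values were seen. Promoter windows are from RefSeq on GRCm38.p6, matched by symbol. No coordinates of different builds were mixed. Alternatives were pseudocounts, filters, scalings, priors, array weights, the experiment as a block, each library left out, a looser threshold, and, added after the values were seen, removal of Rn45s, Gm20594 and Lars2 and scaling with the block.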

Additional observations from a re-analysis of the deposited data

How the results depend on the processing

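None of the 8 genes passed in limma under any of 18 alternative settings, or 17 for Bcl6. That makes 143 pairs of a gene and a setting, with a smallest limma adjusted p of 0.158. Sesn3, Foxo3, Sesn1 and Txnip kept a log2 fold change above 0 in every one of these settings. In the main fit 68.1% of all tested genes were above 0, with a median of 0.18. The near-zero fold changes of Foxo1, Ccng2 and Bcl6 did not hold a sign. With array weights they were 0.06 for Foxo1, 0.46 for Ccng2 and 0.33 for Bcl6. Foxo4 was at 0.05 without WT replicate 3, at 0.00 without db/db replicate 1 and below 0 in its other settings. With each library left out in turn, the fold changes ran from -0.42 to 0.43 for Foxo1 and -0.56 to 0.05 for Foxo4. Those of Ccng2 ran from -0.37 to 0.46 and those of Bcl6 from -0.68 to 0.55. The difference in the share of Foxo1 in the summed TPM ran from -5.92 to 1.46 percentage points. Over all genes, 4 symbols passed. That count was 0 without a filter or without the trend, 1 with median-of-ratios scaling, quantile normalization or the robust prior, 16 with array weights, 7 at an adjusted p under 0.1, and 0 without db/db replicate 2 to 16 without WT replicate 1. Where limma called 0, the genes with p under 0.05 before adjustment, higher and then lower in db/db, numbered 535 and 213 without a filter, 457 and 148 without the trend, and 333 and 122 without db/db replicate 2. The cause was not tested. With the experiment as a replicate block it was 6, and the block changed no other call at an adjusted p under 0.05 reported here. The median of the apoptosis list was 0.33 with a pseudocount of 0.1 TPM, which gives low genes more weight, and -0.11 to 0.28 with each library left out. Of other genes, Sod1 turned to -0.05 with median-of-ratios scaling, with and without the block, and Cd68 to -0.02 with array weights. Leaving out 1 library at a time, ranges that crossed 0 were -0.09 to 0.47 for Klf6, -0.35 to 0.61 for Cd27, -0.11 to 0.45 for Cd68 and -0.39 to 0.13 for Cd79b. At a mean of at least 5 TPM, Bcl6 was not tested. TPM carry no depth, so no limit of detection can be given for Bcl6 or other low genes.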
